A study of Mus musculus with 12 samples.

Results

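The genes described are the protein-coding members of the mouse Hox clusters, taken as the rows of the deposited count tables whose name is Hox, a cluster letter from a to d and a number, and whose transcript type is given as protein_coding. They number 22 of 19564 genes listed in either table, with 14 of 17811 genes in the table of dim cells, 22 of 17521 in the table of bright cells and 14 of 15768 in both. RNA-seq was done on glomerular endothelial cells (GEC) of 3 wild type (WT) and 3 Alport syndrome (AS) mice of the C57BL/6 strain at an age of 4 months. The AS mice carried the mutant allele of the type IV collagen chain gene *Col4a5* of the line B6.Cg-Col4a5tm1Yseg/J and are labelled Col4a5 -/-. All mice of both genotypes, controls included, carried a ROSA26 tdTomato reporter that Cre recombinase switches on, and Cre came from the line B6.Cg-Tg(Tek-cre)1Ywa/J. The *Tek* promoter that drives it is active in endothelial cells and also in blood cells. Glomeruli sieved from the renal cortex were digested, and the cells were sorted by the brightness of tdTomato into a dimtdT and a brighttdT subpopulation. Each mouse gave 1 library of either kind, so that there were 4 groups of 3 libraries, called WT-dim, AS-dim, WT-bright and AS-bright here.

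Libraries held 11440169 to 15074909 counts on genes, and no pair of replicates was close enough in its counts to be the same library. *Col4a5* was at 37.8 to 74.6 CPM (counts scaled to library size with edgeR's TMM factors) in the WT-dim and 1.36 to 3.61 in the AS-dim libraries. In the bright libraries, the WT range of 4.77 to 10.1 CPM overlapped the AS range of 3.05 to 6.64, and the labels do not give which part of the gene the allele alters. *Tek* reached 136 to 264 CPM in the bright libraries of both genotypes, 10.6 to 20.1 in WT-dim and 2.31 to 3.04 in AS-dim. The sum of 14 endothelial markers was 11010 to 18640 CPM in the bright libraries, but 741 to 1398 in WT-dim and 231 to 320 in AS-dim, and leukocyte markers summed to 7191 to 12290 CPM in WT-dim and 14280 to 17360 in AS-dim, and the dim libraries thus held more leukocyte than endothelial marker RNA, against their label. In bulk RNA, fewer cells of a type and less RNA per cell cannot be told apart.

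Hox genes encode homeodomain transcription factors that give cells their place along the body axis during development. They lie in 4 clusters, A to D, and genes with the same number in different clusters are paralogues that arose by duplication of an ancestral cluster. Genes at the low-numbered end of a cluster act towards the head and those at the high-numbered end towards the tail, and adult endothelial, mesenchymal and kidney epithelial cells keep a Hox code of the region in which they arose. In the Gencode M21 annotation of GRCm38, HoxA lies on chromosome 6, HoxB on chromosome 11 (96194316 to 96368256), HoxC on chromosome 15 (102921103 to 103036852) and HoxD on chromosome 2 (74668310 to 74765142). Of 39 Hox genes annotated there, 22 were members, 5 were listed with another transcript type and 12 were listed in neither table. The members were 9 of 11 genes in HoxA, 6 of 10 in HoxB, 4 of 9 in HoxC and 3 of 9 in HoxD. None of the 12 unlisted genes is analysed here, and they include the number 13 gene of every cluster.

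The 2 genes on which the levels turn most are *Hoxd8*, the highest in the dim cells, and *Hoxa5*, beside it the highest in the bright cells. The 250 bases before their annotated starts differ in their number of CG dinucleotides. The sequences are from RefSeq on GRCm38.p6, on the strand of the gene, chr2:74704365-74704614 (plus strand) for *Hoxd8* and chr6:52204588-52204837 (minus strand) for *Hoxa5*. CG dinucleotides are in capitals, since CpG-rich promoters are the kind at which Polycomb and Trithorax proteins act on Hox genes.
Hoxd8: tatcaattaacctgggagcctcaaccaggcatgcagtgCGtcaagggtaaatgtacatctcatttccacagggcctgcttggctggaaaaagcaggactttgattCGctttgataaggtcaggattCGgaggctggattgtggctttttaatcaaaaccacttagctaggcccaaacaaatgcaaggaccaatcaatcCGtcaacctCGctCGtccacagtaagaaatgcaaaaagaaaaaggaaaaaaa
Hoxa5: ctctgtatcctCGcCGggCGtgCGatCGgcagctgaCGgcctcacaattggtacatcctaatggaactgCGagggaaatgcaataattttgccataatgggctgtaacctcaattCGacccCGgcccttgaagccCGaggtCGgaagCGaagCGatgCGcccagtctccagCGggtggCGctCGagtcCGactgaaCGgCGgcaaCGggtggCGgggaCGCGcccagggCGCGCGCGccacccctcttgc
The *Hoxd8* window holds 6 CG dinucleotides, as many as the median of 6 over 32851 such windows of all genes, and 50.4% of windows hold at least as many. The *Hoxa5* window holds 28, which 7.61% of windows reach. A RefSeq window was found for 13 of the 22 members (14 windows, since *Hoxa10* has 2 starts), and their median was 13. Motifs were searched on both strands. The TATA box TATAAA was in 2 of the 14 windows, those of *Hoxb8* and of the downstream start of *Hoxa10*, and in 12.4% of all windows. The site TGATTNAT, bound by Hox and Pbx proteins together, was in the *Hoxa2* window and in 2.82% of all windows, and the Meis site TGACAG was in the windows of *Hoxa2* and *Hoxa3* and in 15.9% of all windows. Neither *Hoxd8* nor *Hoxa5* holds any of these 3 motifs in the window.

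To compare genes with each other, levels were divided by the gene length in the deposited tables and are given as CPM per kb, as mean ± SD of 3 libraries. This length can exceed the exonic bases of Gencode M21. It is 4956 against 2744 bases for *Hoxd8*, 3290 against 1964 for *Hoxb6* and 1879 against 1877 for *Hoxa5*. The orders below hold for the deposited lengths, and orders of genes with near values can change with other lengths. *Hoxd8* (chromosome 2, 74704615 to 74707933, plus strand), a member of the middle of the cluster, stood first in WT-dim with 49.99 ± 20.2 CPM per kb, followed by *Hoxd9* with 8.95 ± 2.43, *Hoxc10* with 6.197 ± 6.94, *Hoxd10* with 5.10 ± 4.58 and *Hoxa5* with 3.13 ± 1.83. *Hoxd8* lay above the other 4, whose spreads overlapped each other between neighbours. In AS-dim the order began with *Hoxd8* at 3.96 ± 2.54, *Hoxd9* at 1.11 ± 0.598, *Hoxa5* at 0.871 ± 0.473, *Hoxb4* at 0.731 ± 0.614 and *Hoxc10* at 0.672 ± 0.119 CPM per kb. Within each of the 3 libraries *Hoxd8* lay above *Hoxd9* (3.40 and 1.03, 6.73 and 1.747, 1.755 and 0.56). The ranges of all later neighbours among these 5 overlapped.

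In the bright cells *Hoxa5* of the HoxA cluster joined *Hoxd8* at the top. The next HoxA member by the deposited lengths, *Hoxa2*, was at 1.01 CPM per kb in WT-bright and 2.01 in AS-bright. WT-bright had *Hoxd8* at 25.4 ± 6.27 and *Hoxa5* at 20.6 ± 4.89 CPM per kb. Within each of the 3 libraries *Hoxd8* lay above *Hoxa5* (25.9 and 18.8, 18.8 and 16.9, 31.3 and 26.2). Then came *Hoxd9* at 5.29 ± 2.0, *Hoxb4* at 4.44 ± 1.72 and *Hoxc10* at 3.85 ± 3.81. AS-bright had, by the deposited lengths, *Hoxa5* first with 23.9 ± 2.18 and *Hoxd8* after it with 17.3 ± 1.26. Then came *Hoxd9* at 3.88 ± 0.389, *Hoxc10* at 3.40 ± 1.20 and *Hoxb4* at 3.07 ± 0.310. Divided by its exonic bases instead, *Hoxd8* would stand above *Hoxa5* in AS-bright too. *Hoxd8* and *Hoxa5* thus stood apart from the other members in the bright cells of both genotypes, and members below the first 5 reached at most 2.45 CPM per kb.

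**Figure D1:**
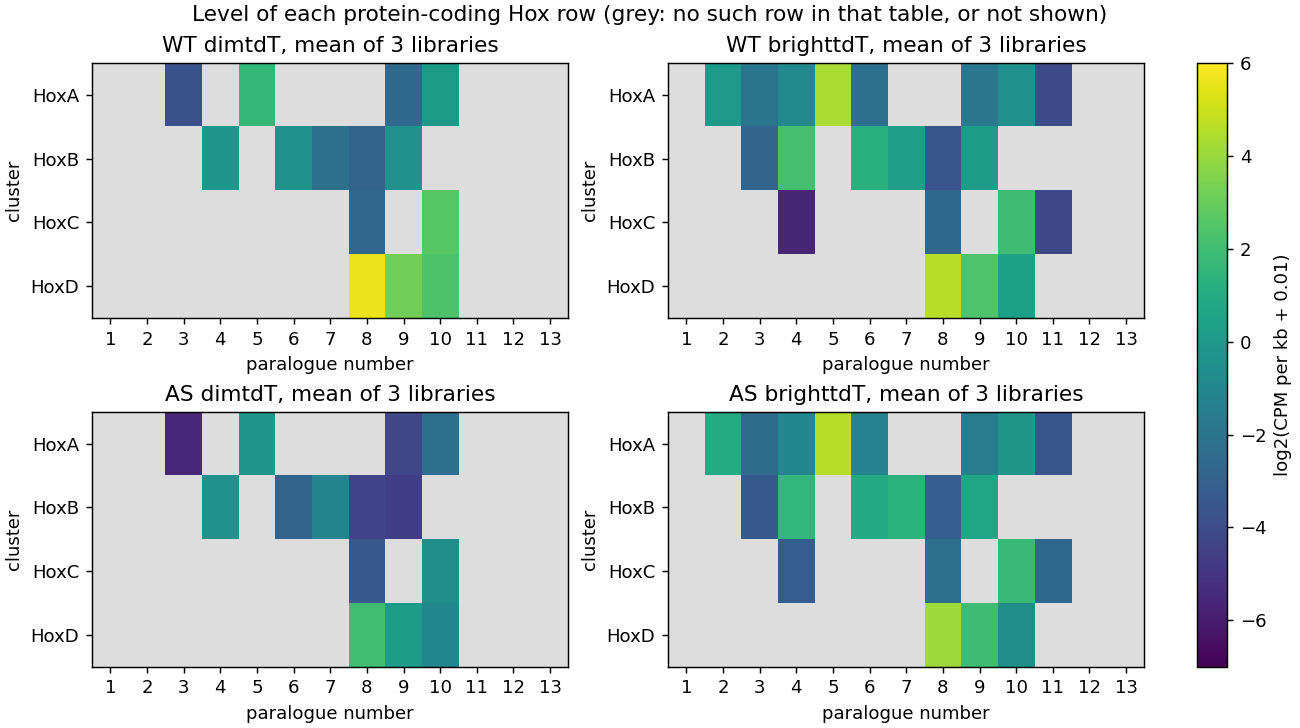
Mean level of each Hox gene in the 4 groups as log2(CPM per kb + 0.01), with the cluster on the vertical and the paralogue number on the horizontal axis and grey for genes that the table does not list with the type protein_coding or that are not shown. The yellow cell at HoxD, number 8, is the highest in WT-dim (49.99 CPM per kb), and HoxA, number 5, reaches 20.6 and 23.9 in the bright groups against 3.13 and 0.871 in the dim ones.

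Summed over the 14 genes of both tables, the Hox level was 222 to 429 CPM in WT-dim, 180 to 247 in WT-bright, 177 to 189 in AS-bright and 18.9 to 47.6 in AS-dim. AS-dim thus stood below the other 3 groups without overlap. HoxD gave 76.2% to 93.1% of the sum in WT-dim, 56.9% to 68.4% in WT-bright, 54.4% to 82.4% in AS-dim and 49.4% to 55.3% in AS-bright, most of it from *Hoxd8*. HoxA gave 3.29% to 6.86% in WT-dim, 6.11% to 19.0% in AS-dim, where the highest library lay within the bright range, and 18.6% to 33.0% in the bright libraries, and HoxC gave at most 12.3% in any library.

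**Figure D2:**
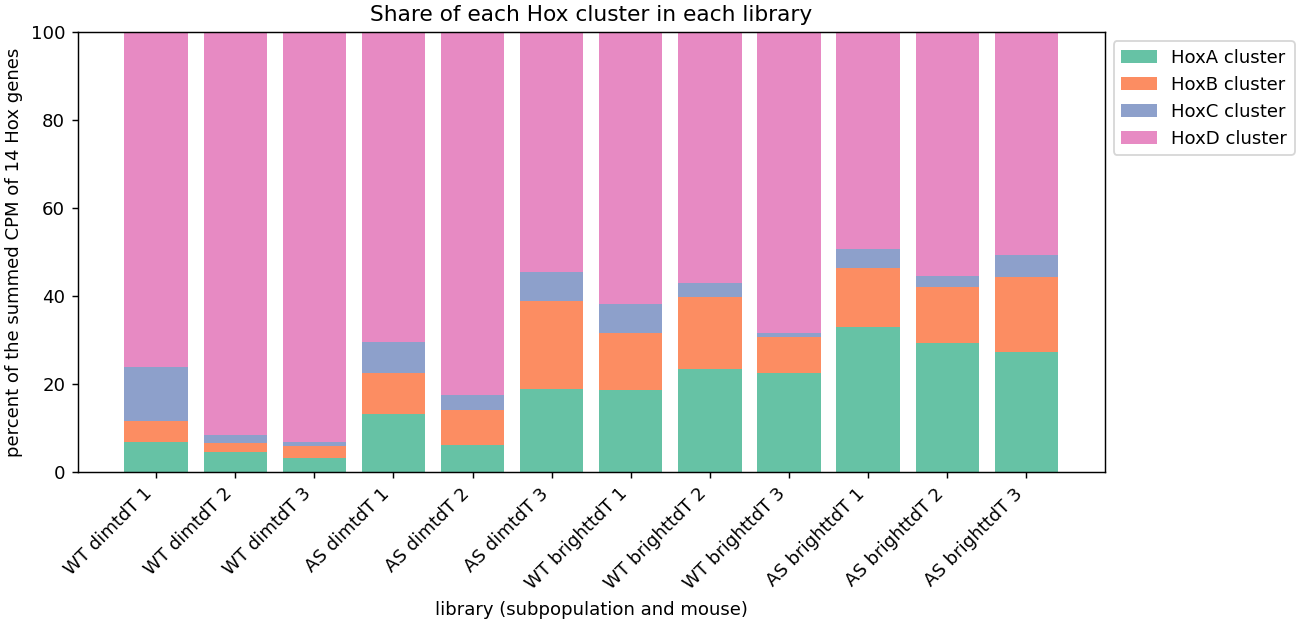
Share of the 4 Hox clusters in the summed CPM of the 14 Hox genes listed in both tables, with a bar for each of the 12 libraries on the horizontal axis and percent on the vertical axis. HoxD fills 76.2% to 93.1% of the WT-dim bars, while HoxA fills 3.29% to 6.86% of the WT-dim, 6.11% to 19.0% of the AS-dim and 18.6% to 33.0% of the bright ones.

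The first question was whether Hox levels differed between AS and WT mice within a subpopulation. In the dim cells, *Hoxd8* was at 148, 349 and 246 CPM in WT and at 16.8, 33.4 and 8.70 in AS. Every AS library lay below every WT library. The log2 fold change of AS over WT was -3.67 (SE 0.51, adjusted p = 0.0179, quasi-likelihood test of edgeR, adjusted by Benjamini-Hochberg over 14637 genes), a 12.7-fold lower level. *Hoxd9* (chromosome 2, 74697727 to 74700208, plus strand), the neighbour of *Hoxd8*, was at 17.4, 25.0 and 15.1 CPM in WT and at 2.19, 3.73 and 1.20 in AS. Again the groups were apart, with a log2 fold change of -3.03 (SE 0.48, adjusted p = 0.0206 in the same edgeR fit).

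*Hoxd10* (chromosome 2, 74691924 to 74695105, plus strand), the next gene of the cluster, was at 3.31, 18.8 and 5.70 CPM in WT-dim and at 0.283, 2.08 and 0.399 in AS-dim. The groups did not overlap, but the WT libraries were widely spread, and the log2 fold change of -3.39 (SE 0.93) did not pass (adjusted p = 0.059, edgeR). With 1 library left out it was -4.79 to -2.39 (adjusted p 0.04915 to 0.206, edgeR). Over the 12 libraries, which share their depth and cell makeup, the gene whose log2(CPM + 1) was most like that of *Hoxd8* among the 14 was *Hoxd9* (Pearson's r = 0.98), and that most like *Hoxd10* was *Hoxd8* (r = 0.77). Within the 6 dim libraries r was 0.99 between *Hoxd8* and *Hoxd9* and 0.93 between *Hoxd8* and *Hoxd10*, and within the 6 bright ones it was 0.82 and 0.38.

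In HoxB, *Hoxb9* (chromosome 11, 96271457 to 96276595, plus strand) stood out. Its counts were 40, 53 and 31 in WT-dim and 3, 1 and 2 in AS-dim, so that every AS library was at or under the floor of 3 counts, which corresponds to 0.191 to 0.269 CPM. The fitted log2 fold change was -4.46 (SE 0.60, adjusted p = 0.0128, edgeR), and the ratio of the summed counts, 124 in WT and 6 in AS, scaled to library size, was 23.2 (95% exact interval 10.4 to 64.3, for counting error only). *Hoxb6* (chromosome 11, 96292476 to 96301569, plus strand) was at 3.31, 2.07 and 2.13 CPM in WT-dim and at 0.142, 0.913 and 0.319 in AS-dim, and its log2 fold change was -2.49 (SE 0.65, adjusted p = 0.0466, edgeR). *Hoxb4* (chromosome 11, 96318267 to 96321638, plus strand) was the member with the smallest difference. It was at 1.97, 1.81 and 2.89 CPM in WT-dim and at 2.19, 0.166 and 3.27 in AS-dim, with a log2 fold change of -0.24 (SE 0.71, adjusted p = 0.87, edgeR), and 2 of its 3 AS libraries lay within or above the WT range.

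In HoxA, *Hoxa10* (chromosome 6, 52231197 to 52240854, minus strand) was at 7.34, 9.13 and 4.85 CPM in WT-dim and at 2.19, 0.913 and 0.878 in AS-dim. The groups did not overlap and the log2 fold change was -2.39 (SE 0.55, adjusted p = 0.0379, edgeR). *Hoxa5* (chromosome 6, 52201754 to 52204587, minus strand), at 6.62, 8.87 and 2.13 CPM in WT-dim and 0.779, 1.58 and 2.55 in AS-dim, overlapped in 1 library of either group (log2 fold change -1.87, SE 0.68, adjusted p = 0.126, edgeR). *Hoxc10* (chromosome 15, 102966796 to 102971893, plus strand) was at 26.9, 6.46 and 2.13 CPM in WT-dim and at 1.49, 1.33 and 1.04 in AS-dim. Its log2 fold change of -3.20 (SE 0.99) did not pass (adjusted p = 0.0832, edgeR), and the WT libraries were far apart. With 1 library left out it was -3.70 to -1.73 (adjusted p 0.0258 to 0.231, edgeR). DESeq2 called *Hoxc10* (adjusted p = 0.00283) and *Hoxd10* (adjusted p = 0.00512).

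**Figure D3:**
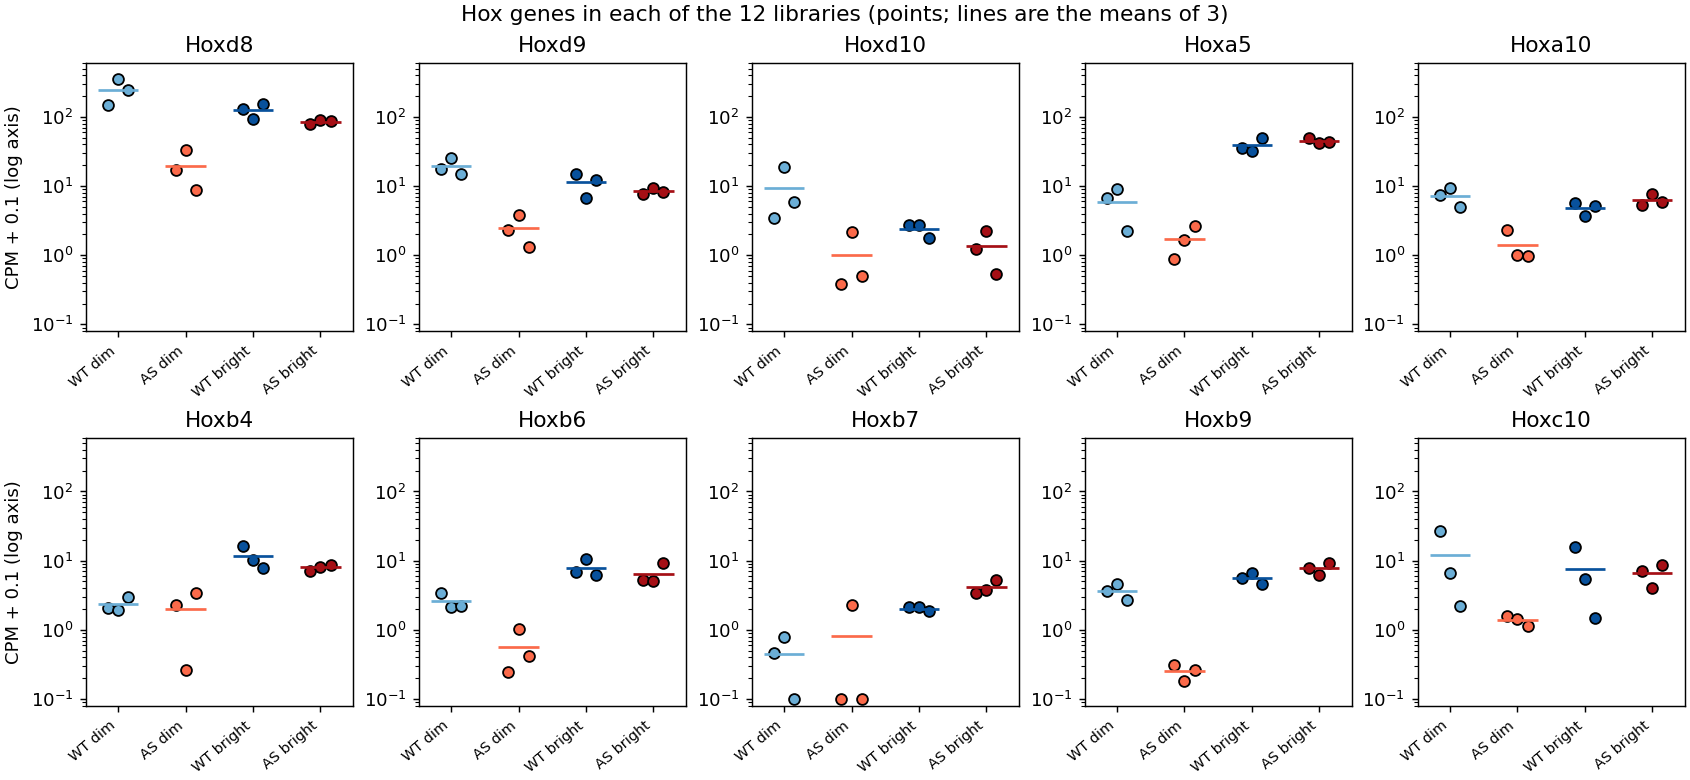
CPM + 0.1 on a log axis for 10 Hox genes in each of the 12 libraries (points, coloured by group, with lines at the means of 3). The AS-dim points of *Hoxd8*, *Hoxd9*, *Hoxa10*, *Hoxb6* and *Hoxb9* lie below all other points of the panel, while their bright groups overlap except for *Hoxd8*.

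Counted together, 5 of the 9 members tested in the dim cells were lower in AS and none was higher, where 6.42% of all genes tested were lower by the same rule. At an unadjusted p under 0.05, 8 of the 9 were lower (15.9% of all genes), and 7 of the 9 had AS libraries below all WT libraries (15.9% of all genes). The median log2 fold change of the 9 was -3.03, and that of all genes tested was -0.02. The filter on low counts was passed by 5 of the 9, *Hoxa5*, *Hoxb4*, *Hoxb6*, *Hoxb9* and *Hoxd10*, only through their WT libraries, so that a lower AS level was part of what the filter let in. The calls of *Hoxb6* and *Hoxb9* are thus no support for the count of members called, and these 5 also enter the other counts and the median. The remaining members called were *Hoxa10*, *Hoxd8* and *Hoxd9*. Of the dim table, 5 members were not tested, namely *Hoxa3*, *Hoxa9*, *Hoxb7*, *Hoxb8* and *Hoxc8*, with at most 27 counts in a library. Without AS-dim replicate 1 or without AS-dim replicate 3, 0 members passed, and of all genes 0 of 15358 and 1 of 15352 passed then, while at an unadjusted p under 0.05 it was 2972 and 3016. Without WT-dim replicate 2 or AS-dim replicate 2, 3 members passed. *Hoxb9*, *Hoxd8* and *Hoxd9* passed in 4 of the 6 fits that left out 1 library, *Hoxa10* in 1 and *Hoxb6* in 0.

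Cell type markers moved with the Hox genes in the dim cells. Of the 13 endothelial markers tested, 9 were lower in AS-dim, as were 8 of 15 proximal tubule markers and 4 of 6 markers of the loop, distal tubule and collecting duct, and 4 of 21 leukocyte marker rows were higher. Proximal tubule markers summed to 9099, 2076 and 1977 CPM in the WT-dim and 55.2, 579 and 38.1 in the AS-dim libraries. The loop, distal tubule and collecting duct markers summed to 684, 1660 and 1020 CPM in WT-dim and 141, 257 and 41.2 in AS-dim, with replicate 2 the highest and, in AS, replicate 3 the lowest. *Hoxd8*, *Hoxd9* and *Hoxd10* were likewise highest in replicate 2 of either group, and *Hoxd8* and *Hoxd9* were lowest in replicate 3 of AS-dim. *Hoxc10* was instead highest in WT-dim replicate 1, where the proximal tubule markers were highest, but in AS-dim these markers were highest in replicate 2 and *Hoxc10* in replicate 1. With the mean of the proximal tubule, leukocyte, endothelial or loop, distal tubule and collecting duct markers as a covariate, none of the 9 members passed, and of all genes tested at most 4 passed in any of these 4 fits. The log2 fold changes of the 5 called members stayed below 0 in these fits, from -4.53 to -3.06 for *Hoxb9*, -4.61 to -1.51 for *Hoxd8*, -3.05 to -1.08 for *Hoxd9*, -2.50 to -1.18 for *Hoxa10* and -1.78 to -0.75 for *Hoxb6*. Those of 3 members that had not been called turned above 0, *Hoxc10* to 0.58, 1.31 and 1.47 with the proximal tubule, leukocyte and endothelial covariates, *Hoxd10* to 2.19 with that of the loop, distal tubule and collecting duct, and *Hoxa5* to 2.58 with the endothelial one. The sums of these 4 marker lists did not overlap between WT-dim and AS-dim, so that these fits cannot separate cell makeup from genotype. The part of the cell makeup in the Hox differences was thus not tested.

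**Figure D4:**
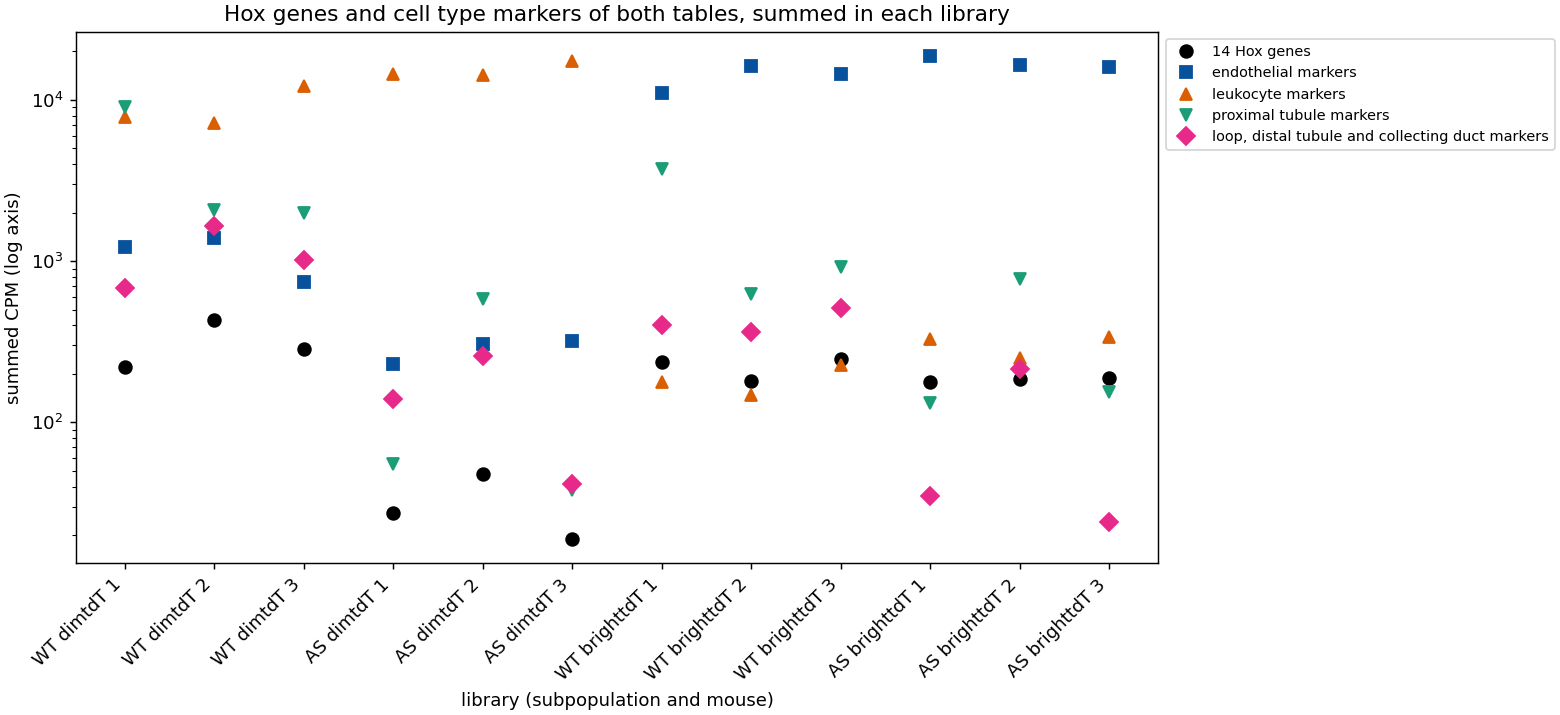
Summed CPM on a log axis of the 14 Hox genes of both tables and of 4 lists of cell type markers, in each of the 12 libraries. In AS-dim the Hox sum (18.9 to 47.6 CPM) and the tubule and endothelial sums lie below those of WT-dim. In the bright libraries the Hox sum lies between 177 and 247 CPM and the loop, distal tubule and collecting duct sums between 24.2 and 513.

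In the bright cells, no member passed for AS over WT among 16 tested, where 0.452% of all genes passed. At an unadjusted p under 0.05 there were 2 of 16 (21.8% of all genes), *Hoxb7* higher and *Hoxd8* lower, and DESeq2 called none of the 16 after adjustment either. *Hoxd8* was at 128, 93.3 and 155 CPM in WT-bright and 78.6, 90.7 and 87.3 in AS-bright. All AS libraries lay just below the lowest WT library, with a log2 fold change of -0.62 (SE 0.23, adjusted p = 0.164, edgeR). *Hoxb7* (chromosome 11, 96286623 to 96290162, plus strand) was at 2.04, 2.01 and 1.75 CPM in WT-bright and 3.33, 3.71 and 5.22 in AS-bright, without overlap (log2 fold change 1.02, SE 0.43, adjusted p = 0.209, edgeR). *Hoxa2* (chromosome 6, 52162417 to 52164831, minus strand) was at 1.84, 1.73 and 1.81 CPM in WT-bright and 2.34, 5.75 and 2.64 in AS-bright, and did not pass (log2 fold change 0.95, SE 0.51, adjusted p = 0.308, edgeR). Groups without overlap were thus found for 2 members with AS above (15.4% of all genes) and for 1 with AS below (9.27% of all genes).

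*Hoxa5*, the highest bright member beside *Hoxd8*, was at 35.4, 31.8 and 49.2 CPM in WT-bright and 49.6, 42.1 and 43.0 in AS-bright, and its log2 fold change of 0.15 (SE 0.24, adjusted p = 0.762, edgeR) was within the spread of the libraries. *Hoxb9*, almost without counts in AS-dim, was at 5.47, 6.50 and 4.47 CPM in WT-bright and at 7.72, 6.13 and 9.08 in AS-bright (log2 fold change 0.42, SE 0.37, adjusted p = 0.539, edgeR). *Hoxc10* was at 15.5, 5.25 and 1.36 CPM in WT-bright, in the same order of mice as in WT-dim, and at 7.08, 3.96 and 8.43 in AS-bright. The median log2 fold change of the 16 was -0.03, as was that of all genes tested (-0.03). Loop, distal tubule and collecting duct markers summed to 366 to 513 CPM in WT-bright and 24.2 to 215 in AS-bright, and *Hoxd8*, *Hoxd9* and *Hoxd10* were highest within AS-bright in the library with 215, replicate 2. Over the 6 bright libraries, r with these markers was 0.74 for *Hoxd8*, 0.52 for *Hoxd9* and 0.87 for *Hoxd10*, but -0.86 for *Hoxb7* and -0.91 for *Hoxb9*, and their part in the bright values was not tested.

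Whether the AS over WT difference itself differed between the subpopulations was tested as the interaction of genotype and subpopulation in one fit of all 12 libraries. In 4 of 13 members tested the difference was higher in bright than in dim cells, and in none lower, where 2.96% of 15084 genes were higher. *Hoxb9* had an interaction of 4.92 on the log2 scale (SE 0.72, adjusted p = 0.00348, edgeR), *Hoxd8* of 3.10 (SE 0.57, adjusted p = 0.0106, edgeR), *Hoxa10* of 2.75 (SE 0.62, adjusted p = 0.0263, edgeR) and *Hoxd9* of 2.56 (SE 0.59, adjusted p = 0.0306, edgeR). At an unadjusted p under 0.05 it was 8 of the 13 (11.5% of all genes), with *Hoxa5*, *Hoxa9*, *Hoxb6* and *Hoxc10* besides, of which *Hoxa9* had passed the filter on low counts only through AS-bright. The median of the 13 was 2.17, and that of all genes 0.13. *Hoxb4* (-0.31, SE 0.80, adjusted p = 0.88, edgeR) and *Hoxb7* (0.12, SE 1.68, adjusted p = 0.981, edgeR) had the smallest values. With the mouse as a block, since the 2 libraries of a mouse are paired, *Hoxc10* passed as well (2.92, adjusted p = 0.0225, edgeR), and the other calls were kept. Leaving out 1 library at a time, *Hoxb9* and *Hoxd8* passed in all 12 fits, *Hoxa10* in 5 and *Hoxd9* in 4. The fits without WT-bright replicate 2 or 3, AS-dim replicate 3 or any 1 of the AS-bright libraries called 2 members.

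The comparison of the subpopulations within a genotype uses the same libraries as those above, and its values are given for the members themselves. In WT mice, 4 of 11 members tested were higher in bright cells and none was lower, where 13.8% of all genes were higher. *Hoxa5* rose from 6.62, 8.87 and 2.13 CPM in the dim to 35.4, 31.8 and 49.2 in the bright libraries, with a log2 fold change of 2.82 (SE 0.49, adjusted p = 0.00288, edgeR). *Hoxb4*, at 1.97, 1.81 and 2.89 CPM in WT-dim, was at 16.3, 10.2 and 7.70 in WT-bright (log2 fold change 2.45, SE 0.54, adjusted p = 0.0101, edgeR). In each gene the lowest bright library was well above the highest dim one.

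*Hoxb7* was at 0.358, 0.689 and 0 CPM in WT-dim, and with 2.04, 2.01 and 1.75 in WT-bright it passed with a log2 fold change of 2.53 (SE 0.75, adjusted p = 0.0284, edgeR). It was at most 8 counts in the WT-dim libraries, and the filter on low counts was passed only through the bright ones. *Hoxb6* was at 6.81, 10.6 and 6.08 CPM in WT-bright against 3.31, 2.07 and 2.13 in WT-dim (log2 fold change 1.73, SE 0.51, adjusted p = 0.0342, edgeR). The calls of *Hoxb6* and *Hoxb7* were the less stable ones, since without any 1 library *Hoxb6* had an adjusted p of 0.0526 to 0.105, and *Hoxb7* passed without 1 library, WT-dim replicate 2, only. Without WT-dim replicate 3 or any 1 of the WT-bright libraries 2 members passed.

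The HoxD genes had values below 0 in WT mice. *Hoxd8* was at a log2 fold change of -0.89 (SE 0.35, adjusted p = 0.094, edgeR), *Hoxd9* at -0.66 (SE 0.43, adjusted p = 0.299, edgeR) and *Hoxd10* at -1.92 (SE 0.72, adjusted p = 0.083, edgeR), none of which passed. The bright libraries of *Hoxd9* and *Hoxd10* lay below all dim libraries (22.1% of all genes). *Hoxa10* (-0.48, SE 0.47) and *Hoxc10* (-0.56, SE 0.94) also had values below 0, and *Hoxb9* (0.70, SE 0.47) and *Hoxa9* (0.81, SE 0.73) above 0, with adjusted p from 0.315 to 0.697 (edgeR). The median of the 11 was 0.70 and that of all genes tested -0.04. Without both libraries of WT mouse 1, the one with the most proximal tubule markers in dim and bright cells, 1 member was higher and 1 lower (*Hoxd8*, -1.20, adjusted p = 0.0468, edgeR). Without WT-dim replicate 1 alone, *Hoxd8* (adjusted p = 0.0248, edgeR) and *Hoxd10* (adjusted p = 0.0337, edgeR) passed as lower, and *Hoxd10* did so by DESeq2 (adjusted p = 0.0279). Over the 6 fits that left out 1 library, *Hoxd8* was at -1.17 to -0.56 (adjusted p up to 0.293, edgeR). *Hoxd10* was at -2.33 to -0.88 in these fits (adjusted p up to 0.3245, edgeR).

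In AS mice, 10 of 11 members tested were higher in bright cells and none was lower, where 28.6% of all genes were higher. The largest differences were those of *Hoxb9*, from 3, 1 and 2 counts in the dim to 109, 96 and 127 in the bright libraries (log2 fold change 5.56, SE 0.51, ratio of summed counts 48.95 with a 95% exact interval of 22.3 to 134 for counting error), and of *Hoxa5*, from 0.779, 1.58 and 2.55 to 49.6, 42.1 and 43.0 CPM (log2 fold change 4.82, SE 0.34). *Hoxb6* followed with 5.17, 5.05 and 9.004 CPM in AS-bright (log2 fold change 3.85, SE 0.58) and *Hoxa9* (chromosome 6, 52223100 to 52231089, minus strand) with 2.13, 3.13 and 2.14 CPM after 0.495, 0.332 and 0.160 in AS-dim (2.88, SE 0.52). The adjusted p of the 4 was at most 0.000818 (edgeR). 

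*Hoxc10* (2.34, SE 0.45), *Hoxa10* (2.21, SE 0.44), *Hoxd8* (2.15, SE 0.38), *Hoxb4* (2.07, SE 0.52) and *Hoxd9* (1.84, SE 0.40) rose by smaller amounts on the log2 scale, with adjusted p of at most 0.00718 (edgeR). *Hoxc10* did not pass where all 12 libraries entered 1 fit (2.35, adjusted p = 0.082, edgeR). *Hoxb7* passed (2.597, SE 0.79, adjusted p = 0.0187, edgeR) with 0, 26 and 0 counts in AS-dim and 47, 58 and 73 in AS-bright, but DESeq2 did not call it (adjusted p = 0.339), and without AS-dim replicate 2, the library with the 26 counts, its log2 fold change was 8.85. It passed in 3 of the 6 fits that left out 1 library, and not without AS-dim replicate 1 or 3 or AS-bright replicate 3. *Hoxd10* was the exception, at 0.283, 2.08 and 0.399 CPM in AS-dim and 1.13, 2.17 and 0.429 in AS-bright (0.55, SE 0.76, adjusted p = 0.572, edgeR). The median of the 11 was 2.34 and that of all genes 0.02. The filter was passed by 5 of the 11, *Hoxa9*, *Hoxb4*, *Hoxb6*, *Hoxb7* and *Hoxb9*, only through the AS-bright libraries, so that these had to be higher there to be tested and their calls are no support for the count of 10. The other members called were *Hoxa5*, *Hoxa10*, *Hoxc10*, *Hoxd8* and *Hoxd9*. The fit with the mouse as a block called the same 10 members.

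**Figure D5:**
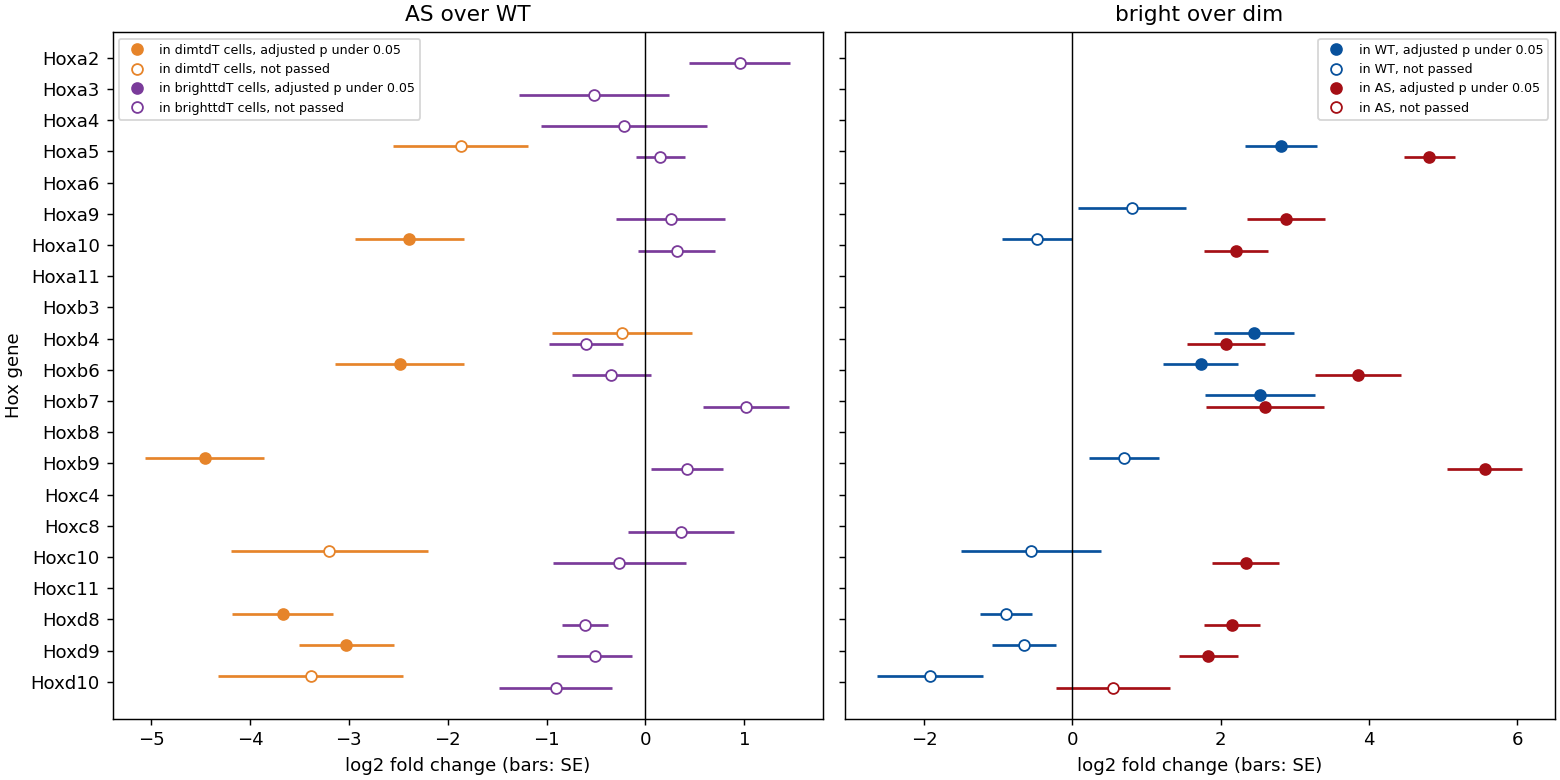
Log2 fold changes with SE bars of the tested Hox genes (rows), for AS over WT in either subpopulation on the left and for bright over dim in either genotype on the right, with filled points for an adjusted p under 0.05 in edgeR's quasi-likelihood test. On the left the dim values reach -4.46 while the bright ones lie between -0.91 and 1.02, and on the right *Hoxd8* is at -0.89 in WT and 2.15 in AS.

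Set side by side, *Hoxd8*, *Hoxd9* and *Hoxa10* had values below 0 for bright over dim in WT that did not pass and were higher in AS, and the interaction above is the test of that difference. *Hoxa5* and *Hoxb4* were higher in bright cells of both genotypes, though without both libraries of WT mouse 1 *Hoxb4* did not pass in WT (1.98, adjusted p = 0.0676, edgeR). *Hoxa5* followed the endothelial markers over the 12 libraries (r = 0.99 between its log2(CPM + 1) and the log2 of their summed CPM + 1, which largely separates bright from dim libraries), where *Hoxd8* had r = 0.46. Within the 6 dim libraries these values were 0.91 and 0.899, and within the 6 bright ones 0.40 and -0.72, so that the contrast of the pooled values was not seen within the dim libraries. The dim values pool WT and AS libraries that do not overlap in *Hoxd8* or in the endothelial sum. They thus largely restate the AS over WT difference and do not decide how either gene follows these markers. Endothelial markers were higher in bright cells for 14 of 14 genes in either genotype, and leukocyte markers lower for 15 of 15 rows. Of the 8 mesangial and mural markers tested, 4 were higher in bright cells in WT and 8 in AS. Their summed CPM was 123 to 220 in WT-dim, 423 to 934 in WT-bright, 61.6 to 111 in AS-dim and 468 to 822 in AS-bright, and over the 12 libraries r with this sum was 0.93 for *Hoxa5* and 0.89 for *Hoxb9*. Within the 6 dim libraries it was 0.69 and 0.85, and within the 6 bright ones -0.17 and 0.53. Of the 7 podocyte markers, 5 were lower in bright cells in WT, and in AS 4 were higher and 2 lower. *Pdgfra*, the 1 fibroblast marker tested, was higher in AS (log2 fold change 3.56) and did not pass in WT (1.13). Of the 8 loop, distal tubule and collecting duct markers tested, 1 was higher and 2 were lower in bright cells in WT, and 0 passed in AS. Of all genes, 13.8% were higher and 11.5% lower in WT. Of the proximal tubule markers, 0 of 15 passed in WT, and 1 of 14 was higher in AS. The part of these cell types in the bright over dim values of the Hox genes was not tested.

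The 8 members listed only in the bright table were all of low level. *Hoxa2* had the most, with 25 to 90 counts. *Hoxa4* had 36 counts in WT-bright replicate 3 and 2 to 16 in the other 5 libraries, and *Hoxb3* 5 to 20. *Hoxa6*, *Hoxa11*, *Hoxc4* and *Hoxc11* were at 0 to 12 counts and above 3 counts in 3, 4, 2 and 2 of the 6 libraries. The last 4, with *Hoxb3* and *Hoxb8*, were not tested in the bright cells. *Hoxc4* was at 1, 0 and 1 counts in WT-bright and at 12, 5 and 2 in AS-bright, a difference of a few counts. *Hoxa3*, in both tables, had 54 counts in WT-bright replicate 2 and 8 to 22 in the other bright libraries, and 0 to 7 in the dim ones. *Hoxb8* had at most 13 and *Hoxc8* 3 to 14 counts in any library. Exons of 5 members, among them *Hoxa3*, *Hoxa4*, *Hoxa11* and *Hoxb3*, overlap a gene on the other strand, by 52.9% of the exonic bases of *Hoxb3* (with *Hoxb3os*) and 35.0% of those of *Hoxa11* (with *Hoxa11os*), and the strand used for counting is not given in the sources used here, so that reads of these genes and their antisense partners cannot be told apart. *Hoxd8*, *Hoxd9*, *Hoxa5*, *Hoxa10*, *Hoxb4*, *Hoxb6*, *Hoxb7* and *Hoxb9* share no exonic base with another annotated gene.

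The 5 Hox genes that the tables list with another transcript type are protein-coding genes in Gencode M21 and were left out of the counts above by the rule. *Hoxb5* (listed as retained_intron) was at 26.3, 58.2 and 24.1 CPM in WT-bright and 30.1, 25.5 and 25.2 in AS-bright, and at 6.45, 7.67 and 1.11 in WT-dim and 0.142, 0.0830 and 1.52 in AS-dim. Per kb *Hoxb5* had means of 7.73 in WT-bright and 5.75 in AS-bright, below the 20.6 and 23.9 of *Hoxa5*. *Hoxb5* was higher in bright cells in WT (log2 fold change 2.93, SE 0.62, adjusted p = 0.00813, edgeR) and in AS (5.57, SE 0.52), and did not pass for AS over WT in dim cells (-3.14, SE 0.99, adjusted p = 0.0799, edgeR). *Hoxa7* (nonsense_mediated_decay) was at 10.8, 13.3 and 10.9 CPM in WT-bright and 14.02, 14.2 and 17.9 in AS-bright, and was higher in bright cells in AS (4.42, SE 0.41) but did not pass in WT (1.71, SE 0.67, adjusted p = 0.0932, edgeR). *Hoxc6* had 8 to 47 counts in all 12 libraries, and *Hoxb2* and *Hoxd4* at most 19.

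Of 46 other genes annotated within the clusters, 13 were listed in a table, most of them antisense or other non-coding RNAs of HoxA. *Hotairm1*, an antisense RNA, had 1 to 13 counts in the dim and 30 to 54 in the bright libraries and was higher in bright cells in WT (log2 fold change 2.20, SE 0.61, adjusted p = 0.0247, edgeR) and AS (3.65, SE 0.59, adjusted p = 0.000246, edgeR). *Gm27477*, an RNA gene annotated beside it, and *Gm15050* were also higher in bright cells of both genotypes (WT log2 fold changes 3.51 and 2.62, adjusted p = 0.00093 and 0.0333, edgeR). *Hoxaas3* had 22 to 220 counts and *Hoxd3os1* 0 to 66. Both were higher in bright cells of AS mice (1.65, SE 0.41, and 4.31, SE 0.80) and did not pass in WT (0.75, SE 0.70, and 0.94, SE 0.62), but the difference between the genotypes did not pass either (adjusted p = 0.619 and 0.13, edgeR). *Hoxd3os1*, at 22, 14 and 12 counts in WT-dim and 5, 0 and 0 in AS-dim, did not pass for AS over WT (-3.34, SE 1.003, adjusted p = 0.0615, edgeR), nor did any other of the 4 tested in dim and the 11 tested in bright cells, while *Haglr* and *Hoxb5os* had too few counts to be tested for it. *Gm53*, the long non-coding RNA beside *Hoxb9*, had values of -3.07 (SE 1.18) in dim and -2.35 (SE 0.65, adjusted p = 0.0865, edgeR) in bright cells. *Hoxa11os*, *Hoxaas2*, *Gm27861* and *Gm29430* were listed in the bright table only with 1 to 32 counts, and *Haglr*, *Hoxb5os* and the pseudogene *Gm11539* had 0 to 51.

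The genes that work with Hox proteins were read from lists. Hox proteins bind DNA together with the TALE homeodomain proteins of the Pbx, Meis and Pknox families. For AS over WT in dim cells 2 of 8 tested were lower, among them *Meis2*, and none was higher (6.42% of all genes were lower). *Meis2* was at 105, 80.4 and 98.99 CPM in WT-dim and 13.4, 18.8 and 19.6 in AS-dim (log2 fold change -2.47, SE 0.25, adjusted p = 0.012, edgeR). *Meis2* also passed the interaction, at 2.20 (SE 0.33, adjusted p = 0.00432, edgeR), and no gene of the list passed for AS over WT in bright cells. Bright over dim, 4 of 8 were higher in WT (among them *Meis2* 3.32, *Pbx3* 1.85 and *Pbx2* 0.95 on the log2 scale), where 13.8% of all genes were, and in AS 6 of 9 were higher, where 28.6% of all genes were, among them *Meis2* (5.46), *Pknox2* (2.97) and *Meis1* (2.43), and *Pbx4* was lower (-1.52). 

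Polycomb proteins keep Hox genes silent and Trithorax proteins keep them active. Of 22 such regulators, all tested, 1 was lower in AS-dim, a share no higher than the 6.42% of all genes. It was *Cbx6*, a subunit of Polycomb repressive complex 1, at 83.6, 99.6 and 158 CPM in WT-dim and 25.9, 39.2 and 23.6 in AS-dim (log2 fold change -1.96, SE 0.32, adjusted p = 0.0206, edgeR). It also passed the interaction (2.27, SE 0.40, adjusted p = 0.00854, edgeR), and none of the 22 passed in bright cells. Bright over dim, *Kdm6a* (1.01) and *Cbx6* (0.95) were higher and *Jarid2* (-1.32) lower in WT, and in AS 5 were higher, with *Cbx6* (3.17), *Cbx2* (2.91), *Men1* (1.45) and *Bmi1* (1.36) in the lead, and 6 lower, led by *Jarid2* (-2.05), *Eed* (-1.55), *Kdm6b* (-1.43) and *Kmt2b* (-1.001). Of all genes, 13.8% were higher and 11.5% lower in WT, and 28.6% higher and 26.5% lower in AS, so that the shares of these regulators in AS were near those of all genes.

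Retinoic acid switches on Hox genes of the low-numbered end. Of 6 genes of its pathway tested in dim cells, 2 were lower in AS, among them *Cyp26b1*, which degrades retinoic acid (log2 fold change -3.11, SE 0.77, adjusted p = 0.0454, edgeR), and none was higher, where 6.42% of all genes were lower. None of 10 passed in bright cells. Bright over dim, *Cyp26b1* (3.97) and the receptor gene *Rarg* (2.18) were higher in WT, 2 of 9 tested, where 13.8% of all genes were. In AS 6 of 8 were higher, among them *Cyp26b1* (7.10), *Rarb* (3.38) and *Crabp2* (2.70), and *Rara* (-1.69) was lower, where 28.6% of all genes were higher and 26.5% lower. As a measure of the surroundings of the clusters, none of the 7 or 8 tested neighbouring genes passed for AS over WT in either subpopulation, for the interaction or for bright over dim in WT, and in AS 3 were higher in bright cells (*Calcoco1*, *Cbx5* and *Hibadh*) and 2 lower (*Lnpk* and *Skap2*) of 7, beside the same 28.6% and 26.5% of all genes.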

How the data were processed

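RNA-seq libraries of dimtdT and brighttdT GEC of 3 WT and 3 AS mice were analysed. Per the processing notes, STAR 2.6.0c was used on GRCm38.p5 (FastQC 0.11.5, cutadapt, Trimmomatic and edgeR are named without a role), with the Gencode M16 annotation. The authors deposited, for each subpopulation, a table of the counts STAR gave per gene, not normalized, without genes of few counts (totals of at least 8). Deposited RPKM values were not used, nor were the authors' own comparison in the log2 fold change, likelihood ratio score and p-value columns. The 92 ERCC spike-ins per table (0.0286% to 0.282% of counts) were left out.

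Counts were tested with edgeR 4.0.16 in R 4.3.3 (filterByExpr, TMM, quasi-likelihood test, Benjamini-Hochberg adjustment over all genes tested, threshold 0.05), AS over WT within a table, and bright over dim and the interaction on the genes of both tables. The libraries of a mouse carry its number, which pairs them within a genotype (deviations from the group means correlated at a mean of 0.23 in WT and 0.203 in AS within a mouse, and at -0.114 and -0.0997 between mice). CPM used TMM factors over all 12 libraries, and intervals cover counting error only. That the labels name separate mice makes the p-values those of mice. Tests were tried on simulated counts. Members, lists and tests were chosen with earlier results of these data known. Genes named were the members that passed (at most 10 per direction), the 5 highest per kb in each group, members of 1 table, up to 4 passing genes per other list, direction and comparison, and cluster genes. Alternatives were RLE or no scaling factors, other filters, DESeq2 1.42.0, a likelihood ratio test, a replicate block, marker covariates, a joint fit of the 12 libraries and leaving out replicates in turn. The edgeR version 3 fit, 2 of the marker covariates (endothelial and distal) and leaving out a mouse were added after seeing the data. Coordinates are those of Gencode M21, on the same GRCm38 build. Some genes are not reported here by name, but stay in the counts of their lists.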

Additional observations from a re-analysis of the deposited data

Results flagged for a closer look

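For 4 members the AS over WT difference was not the same in the 2 subpopulations by the test of the interaction (edgeR's quasi-likelihood test, bright minus dim, on the log2 scale). These were *Hoxb9* with 4.92 (adjusted p = 0.00348), *Hoxd8* with 3.10 (adjusted p = 0.0106), *Hoxa10* with 2.75 (adjusted p = 0.0263) and *Hoxd9* with 2.56 (adjusted p = 0.0306). In each of them all 3 AS-dim libraries lay below all 3 WT-dim libraries, whereas the bright groups of *Hoxb9*, *Hoxa10* and *Hoxd9* overlapped and those of *Hoxd8* lay 1.53-fold apart by the fit. Over the 6 dim libraries all 4 genes moved with the marker sums, with r of 0.87 to 0.98 for the loop, distal tubule and collecting duct (684 to 1660 CPM in WT-dim and 41.2 to 257 in AS-dim), 0.899 to 0.98 for endothelial (741 to 1398 and 231 to 320 CPM), 0.78 to 0.92 for proximal tubule and -0.93 to -0.84 for leukocyte markers. These values pool WT and AS libraries that do not overlap in the 4 genes, and so largely restate the AS over WT difference. Over the 6 bright libraries r was -0.91 to 0.74 for the loop, distal tubule and collecting duct, -0.87 to 0.53 for endothelial, -0.78 to 0.77 for proximal tubule and -0.43 to 0.57 for leukocyte markers, with *Hoxb9* at -0.91 and *Hoxd8* at 0.74 for the first. Their part in the interaction was not tested. Groups of 3 libraries are too small for a check of single libraries that stand apart.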

How the results depend on the processing

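Fits on the log2 scale are by edgeR unless named. For AS over WT in dim cells, 8 of the 9 tested members (all but *Hoxb4*, which was not recomputed) stayed below 0 with other scaling factors, filters, tests or any replicate left out, but marker covariates turned *Hoxc10* to 0.58 (proximal tubule), 1.31 (leukocyte) and 1.47 (endothelial), *Hoxd10* to 2.19 (loop, distal tubule and collecting duct) and *Hoxa5* to 2.58 (endothelial). With these 4 covariates 0 members passed, and with a filter at an average logCPM above 1 or the edgeR version 3 fit 3 did, against 0 to 6 with 1 replicate left out. The dim median was -2.31 without a filter, -2.36 in the joint fit, -2.50, -1.57 and -1.51 with the leukocyte, the loop, distal tubule and collecting duct and the endothelial covariate, and -3.46 to -2.35 with 1 replicate left out. In bright cells 0 members passed under all alternatives run, and the median was 0.31 without a filter, -0.39 with the leukocyte covariate and -0.07 to 0.23 with 1 replicate left out. Bright over dim in WT, 2 to 4 members passed with 1 replicate left out (medians 0.27 to 0.84) and 2 without WT mouse 1, and the filter at logCPM above 1 turned the median to -0.49. In AS it was 10 to 11 (medians 2.21 to 2.74, and 2.65 without mouse 2). For the interaction it was 2 to 5 (medians 1.97 to 2.84), 2 without AS mouse 2 (median 2.78), and the median was 2.59 without WT mouse 1. The cause of these changes was not tested, and in dim cells the marker covariates cannot separate cell makeup from genotype. With the mouse as a replicate block, 4 members passed in WT, 10 in AS and 5 for the interaction, where *Hoxc10* was the added call. For AS over WT, the replicate numbers do not pair mice (mean correlation -0.06 in dim and -0.02 in bright cells), and a replicate block gave 4 calls in dim cells (*Hoxd10* added, *Hoxa10* and *Hoxb6* lost) and 0 in bright cells. Members under about 10 counts a library are limited by depth.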
